A study of Caenorhabditis elegans with 12 samples.

Results

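The comparison was of Caenorhabditis elegans lin-52(n771) larvae collected after UV-B irradiation with lin-52(n771) larvae that were mock treated. LIN-52 is a subunit of the MuvB part of the DREAM complex, and n771 is a mutation in its gene carried by 1 strain, so the allele and other differences of that strain cannot be told apart. Libraries were placed by their treatment and genotype labels: 3 lin-52(n771) libraries 6 h after 60 mJ/cm2 of UV-B and 3 lin-52(n771) libraries after mock treatment, 6 of the 12 libraries of the series. The other 6 were N2, the wild-type strain, with 3 mock and 3 UV-B libraries at the same dose and time. All larvae were synchronised first-stage (L1) larvae that had fed on bacteria for 3 h before treatment, and each library held RNA of whole animals depleted of ribosomal RNA. Of the 46245 gene identifiers, 12913 were tested, all of them protein-coding and averaging 1 FPKM or more over the 12 libraries, with limma, and a gene was called at a Benjamini-Hochberg adjusted p below 0.05.

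UV-B light joins neighbouring pyrimidines in DNA into cyclobutane dimers and 6-4 photoproducts, which stall RNA and DNA polymerases. Nucleotide excision repair removes them after recognition by CSB-1 at stalled RNA polymerase or by XPC-1 across the genome. DREAM is a repressor in which the E2F-DP pair (EFL-1 and DPL-1) and the pocket protein LIN-35 join MuvB, and it is best known for holding cell-cycle genes silent. Worm larvae also build a new cuticle in each stage under a recurring transcriptional programme in which the nuclear receptor NHR-23 and the period-related protein LIN-42 take part.

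The targeted gene was read first. lin-52 had scaled FPKM values of 6.94, 7.43 and 7.58 in the mock libraries and 10.5, 11.1 and 11.7 in the UV-B libraries of the mutant, against 24.9, 27.6 and 20.4 in mock and 35.8, 34.8 and 32.9 in UV-B libraries of N2. Every lin-52(n771) library thus lay below every N2 library, and within the mutant the log2 fold change was 0.57 ± 0.09 (adjusted p = 0.00019), beside 0.51 ± 0.09 in N2. Among the other DREAM genes, lin-53 fell (156 ± 5.71 to 104 ± 6.09 FPKM, mean ± SD, n = 3, log2 fold change -0.59 ± 0.05), lin-54 rose (0.29 ± 0.07), and lin-35 (-0.20 ± 0.06) and efl-1 (-0.20 ± 0.05) fell. dpl-1, at 0.18 ± 0.07, passed narrowly (adjusted p = 0.0431) and did not pass with any 1 of the 6 libraries left out. Of the 8 genes of the complex, 3 (37.5%) were called higher and 3 (37.5%) lower, near the 33.1% and 33.5% of all tested genes. Only 1 was lower when libraries were scaled to an equal sum, where neither lin-35 nor efl-1 passed.

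The 6 libraries were alike in most respects. Scaled values of replicates correlated at 0.981 to 0.985 on the log2 scale, and 12562 to 12973 coding genes reached 1 FPKM. Ribosomal RNA took 22.6, 14.7 and 19.8% of all FPKM in the mock libraries and 12.1, 13.9 and 13.5% in the UV-B libraries, and genes of the mitochondrial genome held 0.891 to 0.931% of coding FPKM in mock and 0.708 to 0.763% in UV-B libraries. Neither share overlapped between the groups, and their part in the results was not tested. Read counts and depth are unknown from FPKM. An exact 0 in these files can be a failed estimate: aars-2, which encodes an alanyl-tRNA synthetase, was listed at 0, 178 and 0 FPKM in the UV-B libraries and at 123, 116 and 124 in mock.

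Most tested genes were called, and most of those by less than 2-fold. Of the 12913 genes, 4268 (33.1%) were called higher and 4330 (33.5%) lower in irradiated lin-52(n771) larvae, and 4315 were not called. The values of the 3 UV-B and 3 mock libraries did not overlap for 9070 genes (70.2%). Fold changes are those of the FPKM after adding a pseudocount of 0.5, which understates the change of low genes. Changes of at least 2-fold were fewer, with 992 genes (7.68%) higher and 585 (4.53%) lower. At 8-fold or more, 80 genes were higher and 58 lower. Shares of a gene list are read below against these background shares. The samples were whole animals, so fewer cells of a type and less RNA per cell cannot be told apart in any of the results.

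The largest decreases were in genes of the cuticle and the moult. Of the 44 tested genes of a moulting and precuticle list, 32 (72.7%) were lower, 27 of them at least 2-fold, and 7 were higher. The median log2 fold change of the list was -1.82, against 0.00 over all tested genes. Like the other lists, it was chosen with earlier results of these data known. The 7 that rose were nhr-25, grh-1, ptr-11, daf-6, egg-6, nekl-2 and mlt-7, and their log2 fold changes were at most 0.54. Among genes averaging 5 FPKM or more in mock, with no overlap between groups and no 0, the 15 largest decreases ran from -4.95 to -6.10 on the log2 scale.

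wrt-10, a hedgehog-related (warthog) gene on chromosome II, stood at 104, 52.7 and 83.5 FPKM in mock replicates 2, 3 and 4 and at 0.248, 0.474 and 1.48 after UV-B, a log2 fold change of -6.10 ± 0.38 (± SE, as for every log2 value given in brackets after a gene). dpy-7, a collagen of the annular furrows encoded on chromosome X, stood at 89.8, 54.9 and 75.9 and then at 0.438, 0.839 and 1.89 (-5.65 ± 0.32, adjusted p = 3.29e-08). mlt-11, named for its moulting defect, stood at 53.9, 28.6 and 46 and then at 0.216, 0.214 and 0.656 (-5.64 ± 0.26). In these genes every mock library was high, every UV-B library was near or below 2 FPKM, and UV-B replicate 4 kept the most. The zona pellucida domain genes noah-1 (209, 149.5 and 195, then 3.74, 5.04 and 8.31 FPKM) and noah-2 (-5.28 ± 0.21) fell alike, as did fbn-1, a fibrillin-like precuticle gene (-5.27 ± 0.22). The lipocalin-related genes lpr-3 and lpr-6 fell by 5.16 and 5.30 on the log2 scale. Also among the 15 were dpy-3 (-5.58 ± 0.26), dao-2 (-5.31 ± 0.28), mlt-8 (-5.24 ± 0.21), sym-1 (-5.10 ± 0.23), the patched-related ptr-4 (-5.12 ± 0.19) and the cadherins cdh-7 (-4.95 ± 0.21) and cdh-10 (-5.01 ± 0.19).

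The level of these genes also varied among libraries of one treatment. Mock replicate 3 was the lowest mock library for all 15 decreases and mock replicate 2 the highest, and UV-B replicate 4 was the highest UV-B library for 14 of the 15. Over the 585 genes that fell at least 2-fold, mock replicate 3 was the lowest mock library for 59.8% and UV-B replicate 4 the highest UV-B library for 57.4%. With any 1 library left out, 31 to 32 of the 44 moulting and precuticle genes were lower.

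**Figure D1:**
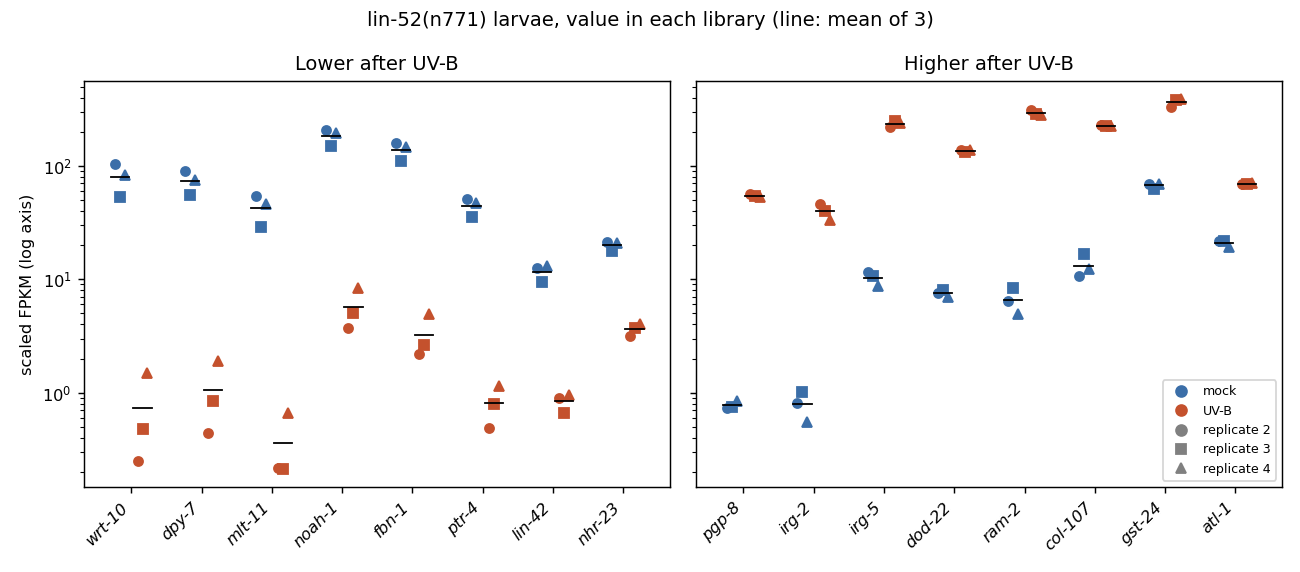
Scaled FPKM (log axis) of 16 genes in each of the 6 lin-52(n771) libraries, 8 that were lower and 8 that were higher after UV-B; blue marks are mock, red marks UV-B, shapes are replicate numbers and black lines are means of 3. The 2 treatments do not overlap for any of the 16, which was a condition for naming most of them and held for 70.2% of all tested genes. UV-B replicate 4 is the highest UV-B library for each of the 8 lower genes.

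The regulators of the moulting programme nhr-23 and lin-42 were lower, while nhr-25 and grh-1 of the same list were among those that rose. nhr-23 stood at 21.5, 17.9 and 20.9 FPKM in mock and 3.16, 3.69 and 4.03 after UV-B (-2.32 ± 0.10, adjusted p = 4.16e-09), and lin-42 at 12.6, 9.43 and 13 and 0.9, 0.664 and 0.958 (-3.18 ± 0.17). Of 200 tested nuclear hormone receptors, 106 (53%) were higher and 33 (16.5%) lower, so the receptors as a family leaned the other way. The 4 with the largest changes were nevertheless lower, nhr-74 (-3.02 ± 0.17), nhr-113 (-2.83 ± 0.15), nhr-259 (-2.74 ± 0.15) and nhr-244 (-2.70 ± 0.27). Of 38 hedgehog-related and patched-related genes, 23 were lower and 8 higher, with ptr-10 at -4.02 ± 0.15.

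Collagens did not move as one class. In the list of furrow and moulting-cycle collagens, 8 of 14 were lower, 7 of them at least 2-fold, and 2 were higher. dpy-9 stood at 110.2, 70.5 and 98.8 FPKM in mock and 1.59, 3.28 and 5.03 after UV-B, whereas ram-2 stood at 6.46, 8.35 and 4.98 and then at 309, 286 and 279 (5.39 ± 0.16). Among 64 tested col genes, 29 were higher (12 at least 2-fold) and 19 lower. col-149 was the most strongly lower, from 1213, 1002 and 1184 to 42.1, 57.4 and 102 FPKM (-4.16 ± 0.23), followed by col-158 (-3.41 ± 0.25). col-107 rose from 10.7, 16.7 and 12.2 to 229, 227 and 224 FPKM (4.07 ± 0.14) and col-39 rose as well (2.51 ± 0.09). Collagen genes resemble each other, and reads shared between near copies may have been split by the authors' quantification.

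The largest increases, chosen like the decreases with 5 FPKM or more on average in the UV-B libraries, included genes known from responses to infection and metals. pgp-8, an ABC transporter of the P-glycoprotein family, stood at 0.73, 0.752 and 0.839 FPKM in mock and 56.3, 54.8 and 53.2 after UV-B (5.44 ± 0.07, adjusted p = 1.1e-12). Both gene IDs annotated as numr-1, a metal-responsive gene, rose, WBGene00017270 at 5.36 ± 0.19 and WBGene00017267 at 5.24 ± 0.11. They are near copies, so how their reads were divided is uncertain. The infection response gene irg-5 went from 11.6, 10.6 and 8.73 to 219.5, 250.4 and 239 FPKM (4.46 ± 0.10), irg-2 from 0.807, 1.02 and 0.548 to 45.9, 39.7 and 33.5 (4.96 ± 0.18) and irg-1 from 6.57, 3.83 and 2.67 to 26.5, 23 and 17 (2.28 ± 0.26). dod-22, which encodes a CUB-like domain protein, rose 17.1-fold, from 7.55, 8.08 and 6.91 to 138, 133 and 137 FPKM. pgp-8 and dod-22 varied little among libraries of one treatment, and both were low in all mock libraries.

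irg-1 and dod-22 were not among the 15 largest increases, and ram-2 of the collagen list was. The rest of the 15 carried sequence names. F19B10.13 had the highest log2 fold change of the 15, from 1.49, 1.52 and 2.52 to 172, 139 and 144 FPKM (6.04 ± 0.24). C49G7.12 (5.73 ± 0.13) and C49G7.10 (4.29 ± 0.11) share a cosmid name, and Y58A7A.5 (5.26 ± 0.11), F43C1.7 (4.57 ± 0.23), F09C6.3 (4.52 ± 0.16), T24A6.7 (4.47 ± 0.14), F21C10.11 (4.44 ± 0.55) and T26H5.9 (4.33 ± 0.20) complete the set. F21C10.11 had the widest mock values, 3.4, 1.77 and 16.6 FPKM, still below its UV-B values of 121, 99.9 and 126. UV-B replicate 2 was the highest UV-B library for 13 of these 15 genes and for 62.5% of all genes that rose at least 2-fold. A further 6 genes were listed at 0 in all 3 mock libraries and at 1 FPKM or more in all 3 UV-B libraries, and no fold is given for these: msp-50, ZK177.9 (10.4, 14.9 and 9.34 FPKM), C36A4.10 (65.2, 30.4 and 30.6), cnc-11, F20E11.17 and B0563.10. C36A4.10 was also listed at 0, 0 and 33.8 FPKM in N2 mock libraries 1, 2 and 4, so its zeros may be failed estimates. F39E9.14 was the 1 gene with the reverse pattern, at 9.03, 3.99 and 9.09 FPKM in mock and listed at 0 in the 3 UV-B libraries. These 7 were chosen by their values.

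Several large families had more tested members higher than lower. Of 101 tested F-box A genes, a family of substrate adaptors of ubiquitin ligases that is expanded in worms, 72 (71.3%) were higher and 3 lower, and 37 rose at least 2-fold. fbxa-50 went from 0.469, 1.07 and 0.733 to 18.7, 14.2 and 13.6 FPKM and fbxa-37 from 9.81, 9.75 and 8.64 to 85, 77.8 and 72.5. Of 98 C-type lectins, 54 (55.1%) were higher, 31 at least 2-fold, and 17 lower. clec-67 rose from 33.6, 37.8 and 31.6 to 185, 206 and 197 FPKM (2.5 ± 0.07) and clec-74 rose as well (3.60 ± 0.25). A list of 49 immune effectors had 27 higher and 15 lower. cul-6, the cullin of the intracellular pathogen response, rose from 3.35, 3.7 and 3.9 to 15.9, 14.1 and 12.8 FPKM (1.83 ± 0.10), and its partner skr-3 also rose (0.83 ± 0.04). Of 19 pals genes, which belong to the same response, 14 were higher and 2 lower, but only 9 were higher without UV-B replicate 2 or without mock replicate 4. pals-23 (1.26 ± 0.05) and pals-24 (1.23 ± 0.12) are the named examples. Members of these families are similar in sequence, so how reads were divided among them is uncertain. Only 101 of 170 F-box A genes, 98 of 240 C-type lectins and 19 of 38 pals genes were tested. The filter averaged all 12 libraries, so members low throughout were not counted. Members low in mock could enter through their UV-B values, and the shares describe the tested members only.

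Of 3 detoxification classes, glutathione S-transferases differed most from the background of 33.1% higher and 33.5% lower. They had 23 of 44 (52.3%) higher and 10 (22.7%) lower, with gst-24 going from 69.3, 63 and 69.5 to 333, 385 and 386 FPKM (2.44 ± 0.06). Cytochrome P450 genes were near the background at 17 (34.0%) higher and 18 (36.0%) lower of 50, although cyp-37B1 (3.19 ± 0.16) and cyp-33C8 (2.36 ± 0.06) rose. UDP-glucuronosyltransferases had 20 (34.5%) higher and 24 (41.4%) lower of 58. Among them ugt-29 rose from 8.58, 8.18 and 7.98 to 75.1, 62.5 and 66.6 FPKM, as did ugt-18 (3.24 ± 0.20) and ugt-24 (3.07 ± 0.09). In lipid metabolism, fat-5, a palmitoyl-CoA desaturase, rose (0.51, 1.21 and 0.594 to 14.4, 4.82 and 7.29 FPKM, 2.78 ± 0.31), and ech-9 rose (2.71 ± 0.13). acdh-1, an acyl-CoA dehydrogenase, fell from 485, 431 and 450.3 to 73.8, 79.5 and 102 FPKM (-2.42 ± 0.10). Of 26 insulin-like peptides 3 were higher and 8 lower, with ins-27 (226 ± 22.4 to 39.4 ± 6.29 FPKM) and ins-33 (-1.98 ± 0.17) among the lower. Only 1 was higher without mock replicate 2, and 2 without UV-B replicate 2 or UV-B replicate 3. Of 35 genes of the insulin pathway and of targets of its transcription factor DAF-16, 18 were higher and 7 lower, with nnt-1, a nicotinamide nucleotide transhydrogenase gene, at 1.18 ± 0.13.

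DNA-damage response genes as a whole did not lean to either side. Of 192 tested genes of the list given by the study, 69 (35.9%) were higher and 61 (31.8%) lower, close to the background of 33.1 and 33.5%, and the median log2 fold change was 0.03. The list median changed sign with the scaling, from -0.01 to 0.11. Only 8 rose at least 2-fold and 2 fell as far. Of the 80 list members described as bound by DREAM in embryos, 21 (26.2%) were higher and 35 (43.8%) lower.

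A few members rose strongly. atl-1, the ATR checkpoint kinase, stood at 21.6, 22 and 19.4 FPKM in mock and 69.9, 68.9 and 70.9 after UV-B (1.72 ± 0.06, adjusted p = 5.62e-10). The 3 UV-B values lay close together and far above mock. parg-2, a poly(ADP-ribose) glycohydrolase, went from 0.499, 0.278 and 0.555 to 14.6, 10.3 and 10.1 FPKM (3.68 ± 0.18), and R03H10.6 from 0.48, 0.28 and 0.408 to 9.97, 10.9 and 10.4 (3.62 ± 0.12). uvs-1 rose from 7.84, 8.28 and 7.69 to 25, 21.7 and 22.5 FPKM (1.48 ± 0.06). Genes of double-strand break repair and of the SMC-5/6 complex also rose, namely rad-50 (22.9 ± 0.867 to 51.7 ± 1.37 FPKM), smc-5 (1.07 ± 0.05) and smc-6 (0.92 ± 0.04). Of 24 homologous recombination genes, 11 (45.8%) were higher and 4 (16.7%) lower, and 7 were higher after quantile normalization.

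Within nucleotide excision repair, 9 of 19 genes (47.4%) were higher and 6 (31.6%) lower, against 33.1% and 33.5% of all tested genes. With 1 library left out 7 to 9 were higher, and with other scalings 7 to 11. csb-1 rose from 5.23, 5.12 and 4.15 to 13.9, 13.6 and 13.2 FPKM (1.4 ± 0.09). Its partner csa-1, at 0.32 ± 0.13, passed narrowly (adjusted p = 0.046) and did not pass in 11 of the alternative fits. xpa-1, the lesion verification factor, rose (0.38 ± 0.08). xpc-1 fell from 16.1, 14.8 and 16 to 11.7, 12.2 and 11.6 FPKM (-0.39 ± 0.05). Of TFIIH, the helicase gene xpd-1 fell from 29.7, 29.6 and 29.7 to 9.72, 10.2 and 11.7 FPKM (-1.46 ± 0.06), and gtf-2H5 (-0.91 ± 0.12) fell too. png-1, from the same list, also fell (-1.02 ± 0.07). Among the 19 genes of this list, the transcription-coupled recognition gene csb-1 rose most and the TFIIH helicase gene xpd-1 fell most. uvs-1, given above, was not in this list and had a higher log2 fold change than csb-1.

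Other repair branches were mixed. Translesion polymerase genes rev-1 (0.93 ± 0.06) and polk-1 (0.29 ± 0.08) rose, while polh-1, the polymerase that copies past cyclobutane dimers, had overlapping values of 17.5, 16.9 and 17.5 and 16.8, 17.6 and 15.7 FPKM (-0.05 ± 0.09, adjusted p = 0.624). helq-1 fell (-0.64 ± 0.06). In base excision repair 2 of 13 were higher (4 with either of the scalings that kept FPKM as deposited or set an equal sum) and 6 lower, with crn-1 (-0.93 ± 0.06) and ung-1 (-0.78 ± 0.12) lower and pcn-1, the replication clamp, lower (-0.61 ± 0.04). exo-3 (-0.14 ± 0.08, adjusted p = 0.146) and parp-1 (-0.30 ± 0.13, adjusted p = 0.0552) were not called.

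Among 17 checkpoint and fork protection genes 2 (11.8%) were higher and 8 (47.1%) lower. atm-1 fell from 23, 22.5 and 23.2 to 16.1, 16.5 and 16.9 FPKM (-0.46 ± 0.04), and chk-1 (-0.41 ± 0.06) and tim-1 (-0.78 ± 0.05) fell too. egl-1, the BH3-only gene that starts apoptosis, had low values of 0.541, 1.26 and 1.65 FPKM in mock and 3.51, 4.79 and 1.51 after UV-B that overlapped between groups, though the fit called it higher (1.15 ± 0.35, adjusted p = 0.013). It did not pass without mock replicate 2 or without UV-B replicate 3. cep-1, the worm p53 gene, was at 9.27, 11.7 and 9.32 and 10.2, 9.16 and 9.07 FPKM (-0.08 ± 0.09, adjusted p = 0.466). cdc-25.2, a phosphatase gene of the cell cycle, was lower (-0.65 ± 0.11). Of the other genes listed with apoptosis, phg-1 (-1.27 ± 0.08) and wah-1 (-0.54 ± 0.04) were lower, while ced-7 (0.39 ± 0.04), needed for the engulfment of dying cells, and the deacetylase gene sir-2.1 (0.55 ± 0.04) were higher.

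**Figure D2:**
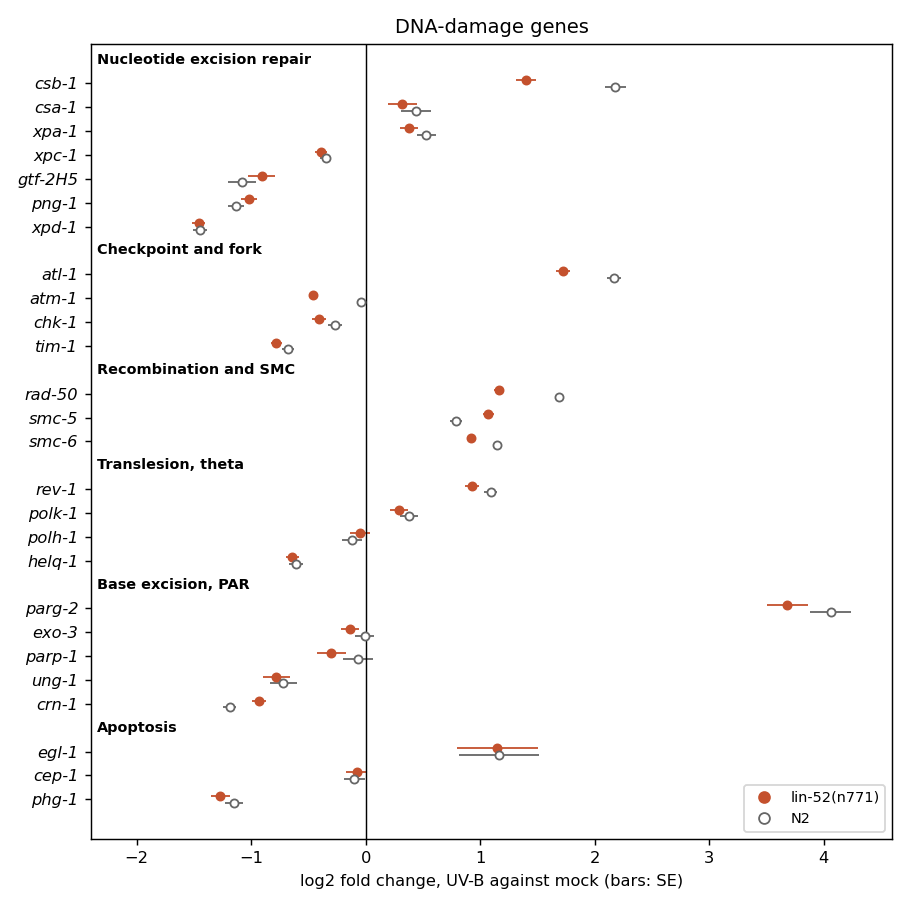
Log2 fold change of UV-B against mock for 26 named DNA-damage genes grouped by pathway, filled red for lin-52(n771) and open grey for N2, with bars of 1 standard error. atl-1 (1.72), csb-1 (1.4) and parg-2 (3.68) lie to the right in the mutant, xpd-1 (-1.46) and phg-1 (-1.27) to the left, and cep-1, polh-1 and exo-3 near 0.

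Genes of DNA synthesis and division fell together. Of 42 DNA replication genes 35 (83.3%) were lower and 1 higher, with a median log2 fold change of -0.53. mcm-5 and mcm-7, subunits of the replicative helicase, went from 67.8, 66.3 and 68.4 to 32.5, 37.4 and 36.1 and from 81.2, 76.4 and 80.3 to 39.9, 46.9 and 45.9 FPKM. tyms-1, which encodes thymidylate synthase, fell (-1.46 ± 0.07). The changes were moderate in size, with 1 of the 35 at 2-fold or more. Of 70 cell cycle and mitosis genes 38 (54.3%) were lower and 11 higher. Among the lower were the cyclin D gene cyd-1 (-1.14 ± 0.12), the spindle-positioning gene gpr-1 (-0.91 ± 0.07), the Aurora kinase gene air-1 (-1.07 ± 0.06) and cdk-1 (89.7 ± 3 to 50 ± 4.56 FPKM). Of 77 histone genes 52 (67.5%) were lower and 2 higher. his-38 (-2.08 ± 0.17) and the linker histone gene hil-5 (-1.56 ± 0.08) fell, while another linker histone gene, hil-1, rose from 5.83, 6.75 and 5.36 to 30.9, 19.1 and 17 FPKM. Core histone genes are near-identical copies and their single values are uncertain.

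Machinery of gene expression split by function. ama-1, the largest subunit of RNA polymerase II, rose from 85.3, 79.1 and 84 to 202, 195 and 195 FPKM (1.25 ± 0.04, adjusted p = 6.16e-10), and 7 of its 12 subunit genes were higher and 1 lower, rpb-2 among the higher (0.52 ± 0.04). Of 31 ribosome biogenesis and nucleolar genes 24 (77.4%) were higher and 5 lower, with a median of 0.65, and 3 were lower without UV-B replicate 2, mock replicate 2 or mock replicate 4 or with an equal-sum scaling. lpd-7, the worm pescadillo gene, rose from 111, 104 and 110.0 to 285, 263 and 259 FPKM, and dao-5, a nucleolar phosphoprotein gene (1.19 ± 0.05), and wdr-12 (1.12 ± 0.07) rose too. Cytosolic ribosomal protein genes themselves had 3 higher and 33 lower of 80, with a median of -0.11. That count rested on single libraries and on the scaling. It was 67 lower without mock replicate 3, and 14, 16, 16 and 20 lower without mock replicate 4, mock replicate 2, UV-B replicate 2 and UV-B replicate 3. Other scalings gave 18 to 23 lower and 3 to 12 higher, and a fit of the 6 libraries alone gave 17 lower. rla-0 (-0.25 ± 0.05) and rpl-41.1 (-0.78 ± 0.05) fell and rpl-24.2, a homologue of a ribosome assembly factor, rose (1.17 ± 0.05). Of 32 tRNA synthetase genes 7 were higher (11 with an equal-sum scaling or with FPKM as deposited), with sars-1 (185 ± 5.67 to 509 ± 24.3 FPKM) and hars-1 (0.76 ± 0.04) among them, and 12 lower, with fars-2 (-0.81 ± 0.05) and wars-1 (-0.68 ± 0.04).

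Protein turnover also moved in 2 directions. Of 33 proteasome genes 32 (97.0%) were lower, and 32 were lower under each of 3 other scalings and with any 1 of the 6 libraries left out. The falls were small and even: rpn-9 went from 132, 130.1 and 127 to 83.5, 87.6 and 93.8 FPKM (-0.55 ± 0.05), rpt-2 (-0.54 ± 0.04) and pas-4 (-0.54 ± 0.07) fell by as much, and the median was -0.41. Of 29 autophagy and lysosome genes 21 (72.4%) were higher and 3 lower. sqst-1, the p62 cargo receptor gene, rose from 75.7, 76.6 and 74.3 to 202, 166 and 158 FPKM (1.2 ± 0.08), lgg-1, an Atg8 homologue, from 387, 449 and 397 to 811, 695 and 677 (0.82 ± 0.07), and atg-18 rose too (0.78 ± 0.09). Of 21 vacuolar ATPase genes 17 (81.0%) were lower and 1 higher, with vha-4 (-0.39 ± 0.04) the most strongly lower by the rule for named genes.

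**Figure D3:**
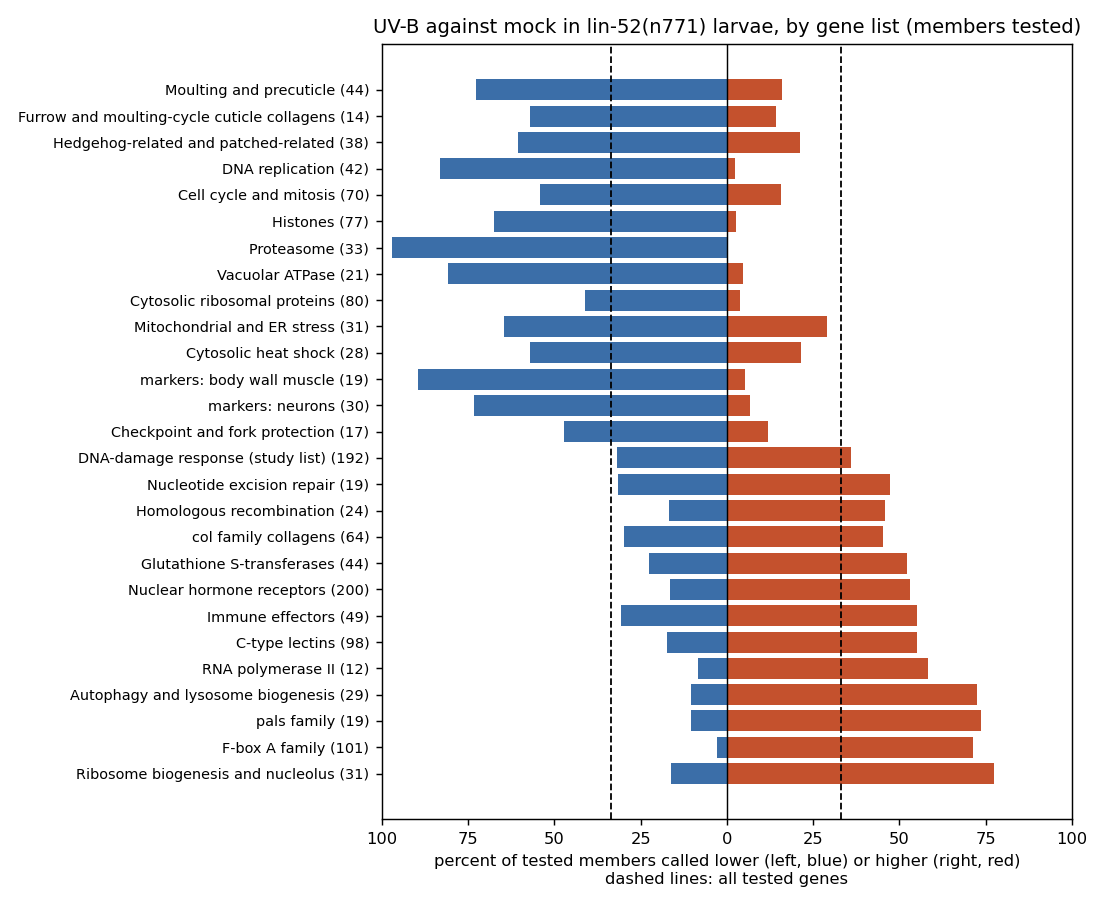
Share of tested members called lower (blue, left) or higher (red, right) after UV-B in lin-52(n771) larvae for 27 gene lists, with the number of tested members in brackets and dashed lines at the shares over all tested genes (33.5% lower, 33.1% higher). Proteasome (97.0% lower) and DNA replication (83.3% lower) lie at one end, F-box A (71.3% higher) and ribosome biogenesis (77.4% higher) at the other, and the DNA-damage response list near both dashed lines.

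Chaperone and antioxidant genes were more often lower than higher. Of 28 cytosolic heat shock genes 16 were lower and 6 higher. hsp-16.2 went from 17.3, 11.4 and 14.7 to 3.86, 3.96 and 3.38 FPKM and hsp-16.41 fell (-2.13 ± 0.18), and the Hsp70 gene F44E5.4 also fell (-1.2 ± 0.12), while the small heat shock gene sip-1 rose (1.34 ± 0.13). Of 31 mitochondrial and endoplasmic reticulum stress genes 20 were lower and 9 higher, with the protein disulfide isomerase genes pdi-1 (526 ± 24.3 to 225 ± 11.1 FPKM) and pdi-2 (-0.95 ± 0.06), dnj-27 (-1.28 ± 0.08) and the mitochondrial chaperonin gene hsp-60 (-0.82 ± 0.06) lower. Of 33 antioxidant genes and genes linked to SKN-1, 15 were lower and 9 higher. msra-1, a methionine sulfoxide reductase gene (-1.46 ± 0.09), and gst-10 (-0.95 ± 0.12) fell. sod-4, an extracellular superoxide dismutase gene (0.95 ± 0.12), and the metallothionein gene mtl-1 (1.60 ± 0.14) rose. All 12 protein-coding genes of the mitochondrial genome were tested, with 8 lower (5 with quantile normalization) and 2 higher and summed levels of 7440 to 8062 FPKM in mock and 5582 to 6198 after UV-B. The 3 with the largest decreases were WBGene00010967 (-0.69 ± 0.05), WBGene00010965 (-0.50 ± 0.05) and WBGene00010964 (-0.49 ± 0.05).

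Genes of stress and developmental regulators had small to moderate changes. The heat shock factor gene hsf-1 (0.41 ± 0.05) and skn-1 (0.51 ± 0.03) rose, egl-27 rose from 57.7, 58.4 and 56 to 68.8, 66.6 and 66.4 FPKM (0.23 ± 0.03), and daf-16 had overlapping values of 25.7, 24.6 and 24.3 and 27.6, 24.1 and 24.3 (0.02 ± 0.07, adjusted p = 0.766). The intestinal GATA factor genes elt-2 (0.70 ± 0.07) and elt-7 (0.75 ± 0.09) rose. Those of seam cells, elt-6 (-1.35 ± 0.10) and egl-18 (-0.97 ± 0.05), fell.

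Of the germline, meiotic and chromatin lists, only the germline list held a called change of at least 2-fold, in 1 gene. Of 38 germline and P granule genes 16 (42.1%) were higher and 2 lower, gld-1 (0.70 ± 0.14) and cpg-1 (0.65 ± 0.14) among the higher and mes-4 (-0.35 ± 0.06) among the lower. Of 29 meiotic chromosome genes 6 (20.7%) were higher, a share below the 33.1% of all tested genes, him-17 among them (0.36 ± 0.04), and 2 lower, plk-2 (-1.0 ± 0.11) and pch-2 (-0.45 ± 0.06). Only 3 of the meiotic genes were higher without UV-B replicate 2 or without mock replicate 3, 2 with quantile normalization, and 10 with an equal-sum scaling or without the trend. Of 25 genes of H3K4 methylation and chromatin 10 were higher, including the methyltransferase gene set-2 (0.57 ± 0.05) and lin-15B (0.36 ± 0.04), and 3 lower, including the demethylase gene jmjd-3.1 (-0.75 ± 0.07).

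Neuropeptide genes were split much as all tested genes were, with 27 higher and 31 lower of 97. Both shares lay below the background of 33.1% higher and 33.5% lower. nlp-66 rose from 2.86, 5 and 3.16 to 18.3, 14.9 and 13 FPKM, and nlp-76 (1.18 ± 0.27) and nlp-28, one of the neuropeptide-like genes also known as antimicrobial (1.21 ± 0.09), rose too. nlp-24 fell from 292, 312 and 302 to 124, 116 and 125 FPKM (-1.31 ± 0.06).

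Markers of cell types moved unequally. Of 19 body wall muscle markers 17 were lower and 1 higher, and their summed level was 7439 to 8008 FPKM in mock and 5674 to 6035 in UV-B libraries. ttn-1, the titin gene, went from 82, 80 and 81.3 to 40.5, 40.4 and 41.8 FPKM, and the troponin genes tni-1 (-0.60 ± 0.05) and pat-10 (-0.59 ± 0.05) and the major body wall myosin gene unc-54 (-0.53 ± 0.05) fell. Of 30 neuronal markers 22 were lower and 2 higher, with sums of 1495 to 1539 and 1118 to 1211 FPKM. The touch receptor tubulin genes mec-7 (72.8 ± 1.13 to 31 ± 0.831 FPKM) and mec-12 (-1.19 ± 0.05), the synaptic gene unc-13 (-0.95 ± 0.04) and the glutamate transporter gene eat-4 (-0.97 ± 0.06) fell. Hypodermis and seam markers, several of which are also cuticle genes, had 8 of 14 lower, with sums of 804 to 951 FPKM in mock and 452 to 483 after UV-B.

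Other marker lists were more even. Intestinal markers were even, with 8 higher and 7 lower of 18 and sums of 10160 to 10420 and 9923 to 10210 FPKM that overlapped between the groups, although act-5, an intestinal actin gene, was listed at 0 in all 6 libraries, and lys-4 (-1.76 ± 0.11), cpr-5 (-1.25 ± 0.04) and the phosphatase gene pho-1 (-0.80 ± 0.07) fell. Pharyngeal markers had 4 of 11 (36.4%) higher, near the 33.1% of all tested genes, with myo-5 among them (0.71 ± 0.04). The 1 lower was tnt-4 (-0.11 ± 0.04), a call that was lost in 10 of 18 alternative fits. The largest log2 fold change of these markers was 3.06, and 10 of the 11 remained when genes with a 0 were left out. Without mock replicate 2 only 2 were higher. Their sums overlapped between the groups, at 1018 to 1058 and 1051 to 1387 FPKM. Germ cell markers had 1 higher, glh-1 (0.44 ± 0.06), and 1 lower of 10, with sums of 120.5 to 126 and 131 to 144 FPKM. Of 10 markers of embryos carried over 6 were below 1 FPKM, with pes-10 and tbx-37 listed at 0. The 4 tested summed to 71.4 to 73.7 FPKM in mock and 102 to 106 after UV-B, most of it from skn-1 at 66.5, 68.8 and 68.7 and 96.3, 96.5 and 99. Of 15 markers of later larvae and adults 13 were below 1 FPKM, and msp-3, a sperm gene, was listed at 0. Because a 0 can be a failed estimate, and act-5 was also at 0, these zeros are not read as absence. lin-3, the EGF-like ligand gene of the list for later stages, rose (0.92 ± 0.08).

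Long genes were lower more often. When the tested genes were divided into 5 groups of equal size by annotated span, 47.6% of the longest group (5407 to 87197 bp in the Ensembl annotation) were lower and 26.3% higher, with a median log2 fold change of -0.15. In the 4 shorter groups 27.5 to 33.2% were lower and 29.7 to 37.6% higher. Among the 5 genes with the longest spans, ttn-1 (-0.98 ± 0.03), hmr-1 (-0.68 ± 0.04), unc-89 (-0.44 ± 0.03), vab-10 (-0.23 ± 0.04) and cox-6B (-0.36 ± 0.04) all fell. Several of these encode muscle or adhesion proteins, and the exons of cox-6B make up 572 bp of its span. cox-6B and vab-10 were each not called in at least 1 alternative fit. Level moved with the share as well: in 5 equal groups by mock level, 56.9% of the highest group and 12% of the lowest group were lower. The mock libraries that set these groups also enter the contrast, so part of this order can follow from the grouping itself. The lowest group ran from 0 to 3.786 FPKM in mock, and its genes below 1 FPKM were tested only through higher values elsewhere. Medians within level groups share these limits, and the part of level itself was not tested. Within the lowest of these 5 level groups the median log2 fold change went from 0.42 in the shortest to 0.011 in the longest span group, while within the highest it lay between -0.12 and -0.22 in every span group with no order by span. Chromosome V had 39.0% of its genes higher and 26.8% lower, and chromosome X 28.1% higher and 38.8% lower.

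**Figure D4:**
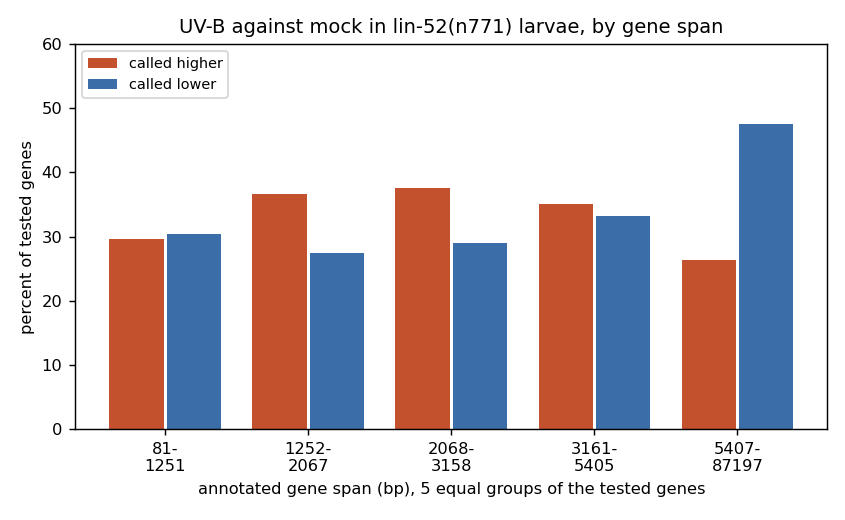
Percent of tested genes called higher (red) or lower (blue) after UV-B in lin-52(n771) larvae in 5 equal groups of annotated gene span, from 81-1251 bp to 5407-87197 bp. The longest group has the most genes lower (47.6%) and the fewest higher (26.3%).

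The response of the mutant was compared with that of N2 to find where it differed. N2 had 4723 genes (36.6%) higher and 4782 (37%) lower. Of the genes called in lin-52(n771), 3847 of those higher (90.1%) and 3950 of those lower (91.2%) were called the same way in N2, and 44 were called the opposite way. The 2 sets of log2 fold changes, which share no library, correlated at 0.915 across genes. Genes are not independent replicates, so this is a description. The 757 genes called in the mutant and not in N2 included 73 for which the difference of the effects passed its own test.

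Genes called in the mutant had more often a smaller than a larger change there than in N2. The difference of the 2 UV effects, tested as an interaction in the same fit, was positive for 702 genes (5.44%) and negative for 801 (6.2%). Of the 4268 genes that rose in the mutant 2942 had a smaller fitted change there than in N2, with median log2 fold changes of 0.58 in the mutant and 0.67 in N2. Of the 4330 that fell 2991 had a smaller change in the mutant, with medians of -0.49 and -0.60. Each UV-B library of the mutant, set against the mean of its mock libraries, had a slope of 0.829, 0.764 and 0.743 on the N2 effect across genes. The N2 UV-B libraries had slopes of 1.06 to 1.09 on the effect in the mutant. The numbers of differences depended on single libraries: without UV-B replicate 2 of the mutant, the one with the steepest slope, 1052 were positive and 1134 negative, and without UV-B replicate 4 371 and 453.

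The decreases of the moulting genes were large in both strains. Of the 44 genes of that list none had a positive difference and 1 a negative one, and the list median was -1.82 in the mutant and -1.77 in N2. dpy-7 and mlt-11 had differences of 0.29 ± 0.46 (adjusted p = 0.727) and -0.40 ± 0.36 (adjusted p = 0.528), neither called.

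Several DNA-damage genes rose less in the mutant than in N2. csb-1 rose by 1.4 ± 0.09 in the mutant and by 2.18 ± 0.09 in N2, a difference of -0.78 ± 0.13 (adjusted p = 0.00575). uvs-1 (-0.78 ± 0.08), rad-50 (-0.54 ± 0.06) and atl-1 (-0.46 ± 0.08) also had negative differences. That of smc-6 (-0.23 ± 0.06) was lost in 13 of 23 alternative fits. smc-5 had a positive one (0.28 ± 0.07), which did not pass without UV-B replicate 3 of the mutant. The mock levels of these genes were not alike throughout: rad-50 stood at 23.2, 21.9 and 23.6 FPKM in mutant mock and 14.7, 15.6 and 14.8 in N2 mock libraries, and ended at 52.7, 52.2 and 50.1 and 48.3, 50.7 and 50.1. atm-1 fell in the mutant from 23, 22.5 and 23.2 to 16.1, 16.5 and 16.9 FPKM, N2 stood at 14.9, 14.9 and 15.1 in mock and 14.2, 14.4 and 14.9 after UV-B, and the difference was -0.42 ± 0.06 (adjusted p = 0.00273).

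Of the 8 largest negative differences, 5 were in genes called lower in the mutant and higher in N2. ddn-1 stood at 58.7, 55.6 and 58.5 FPKM in mutant mock and 32.4, 34.3 and 37 in mutant UV-B libraries, and at 1.19, 1.07 and 0.433 and 7.33, 8.77 and 7.78 in N2. It fell in the mutant (-0.73 ± 0.17) and rose in N2 (2.64 ± 0.17), and the same held for B0507.8 (-0.69 ± 0.07 and 2.42 ± 0.07), Y2H9A.6 (-0.52 and 1.84), Y6E2A.5 (-0.56 and 1.37) and Y47G7B.2 (-0.35 and 1.55). In all 5 every mutant library was above every N2 library, before and after UV-B. The fall of Y47G7B.2 in the mutant was not called in 13 of 18 alternative fits, without any 1 of the 6 libraries among them, and that of Y2H9A.6 in 3. fipr-26 and dao-6 rose in both strains, by 3.90 ± 0.10 and 2.44 ± 0.23 in the mutant and by 6.35 ± 0.10 and 4.41 ± 0.23 in N2, and Y6E2A.4 by 0.69 ± 0.20 and 3.05 ± 0.20.

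The pals family held 9 negative differences among 19 tested genes (47.4%, against 6.2% of all tested genes). Its median log2 fold change was 0.44 in the mutant and 1.37 in N2. The filter averaged all 12 libraries, so members low elsewhere could enter through the N2 UV-B libraries. The share describes the tested members only. cul-6 had a difference of -1.04 ± 0.14 and skr-3 of -0.34 ± 0.06. In N2 cul-6 stood at 2.04, 2.45 and 2.49 FPKM in mock and 19.3, 21.3 and 19.9 after UV-B, so the N2 values were below those of the mutant in every mock library and above them in every UV-B library.

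Positive differences were largest in ZK353.10, C01B10.7, haf-6, comt-2, WBGene00010966 of the mitochondrial genome, F23D12.3, R09E12.9 and C54C6.5. Of 22 or 23 alternative fits, the call was lost in 17 for R09E12.9, 13 for WBGene00010966, 11 for comt-2, 3 for ZK353.10 and 1 for C01B10.7, the replicate block among those of R09E12.9, comt-2 and ZK353.10. haf-6, an ABC transporter gene, stood at 3.72, 3.71 and 4.58 FPKM in mutant mock and 4.52, 4.31 and 4.02 in mutant UV-B libraries, and at 27, 28.7 and 25.6 and 10, 9.45 and 9.48 in N2, so it fell in N2 (-1.44 ± 0.08), and the mutant values overlapped between treatments. F23D12.3 fell less in the mutant (-1.15 ± 0.10) than in N2 (-2.5 ± 0.10), and comt-2 rose more (2.24 ± 0.26 against 0.84 ± 0.26). By list, col genes had 22 positive differences of 64, body wall muscle markers 9 of 19, neuronal markers 9 of 30 and pharyngeal markers 5 of 11, against 5.44% of all tested genes. The col count, like that of the pals genes, describes tested members only. Muscle markers had a median of -0.36 in the mutant and -0.67 in N2.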

How the data were processed

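RNA of whole L1 larvae was depleted of ribosomal RNA and sequenced from stranded, paired-end libraries. Per the study's methods, reads were aligned with TopHat and quantified with Cufflinks on Ensembl gene models, and the methods name no genome build. The values deposited by the authors were FPKM (fragments scaled by transcript length and by all mapped fragments), 1 per gene and library, with no depth. The authors chose 3 of 4 replicates per group after quality checks. All 12 libraries were used, grouped by the labels, and 0 value columns were left aside. The labels call them biological replicates, and p-values measure the spread between these samples.

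FPKM were scaled by median-ratio size factors over 14130 protein-coding genes above 0 in every library. The 12913 protein-coding genes averaging 1 FPKM or more were fitted as log2(FPKM + 0.5) with limma 3.58.1 (R 4.3.3, trended empirical Bayes), with 4 group means and the difference of the UV effects as an interaction. Benjamini-Hochberg adjustment ran over all tested genes and 0.05 was the threshold. The fit was tested on simulated data. Tables and plots were made with Python 3.11.15, pandas 2.3.3, NumPy 2.4.6 and Matplotlib 3.10.9.

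The comparison and the gene lists were chosen with earlier results of these data known, and 25 of 1344 list entries matched no gene. The DNA-damage lists are the study's own. Biotype, chromosome and span came from the Ensembl annotation. Named genes were a fixed set, the 15 largest increases and decreases averaging 5 FPKM or more in the higher group, no overlap between groups and no 0, up to 4 called members per list under the same conditions, the 8 largest differences in each direction, and the 5 longest genes. Genes named outside this rule are the 7 risen moulting genes, genes listed at 0 (4 markers among them), and aars-2. Alternatives changed the scaling, pseudocount, filter, gene set, trend, libraries fitted and replicate block.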

Additional observations from a re-analysis of the deposited data

Results flagged for a closer look

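Each gene below had a UV-B effect in lin-52(n771) that differed from its effect in N2 by the interaction test in limma (adjusted p below 0.05). Values are log2 differences, the effect in the mutant less the effect in N2.

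The largest negative values were in ddn-1 (-3.37), B0507.8 (-3.11), fipr-26 (-2.45), Y2H9A.6 (-2.36), Y6E2A.4 (-2.36), dao-6 (-1.96), Y6E2A.5 (-1.94) and Y47G7B.2 (-1.91). Genes of DNA-damage, cell-cycle and apoptosis lists with negative values were csb-1 (-0.78), uvs-1 (-0.78), rad-50 (-0.54), atl-1 (-0.46), atm-1 (-0.42), tyms-1 (-0.37), pch-2 (-0.37), smc-6 (-0.23), ced-7 (-0.21) and sir-2.1 (-0.20). Among the largest increases, negative values were those of F43C1.7 (-1.37), T26H5.9 (-0.98), F09C6.3 (-0.91), pgp-8 (-0.76), C49G7.12 (-0.66) and the numr-1 copy WBGene00017267 (-0.62). In the F-box A family and the intracellular pathogen response they were those of cul-6 (-1.04), fbxa-37 (-0.57), skr-3 (-0.34) and pals-23 (-0.24). Detoxification and metabolic genes among them were ugt-18 (-1.19), mtl-1 (-1.13), nnt-1 (-0.96), cyp-37B1 (-0.81), sod-4 (-0.72), ugt-29 (-0.66), ugt-24 (-0.53) and cyp-33C8 (-0.51). The others were sqst-1 (-0.51), sars-1 (-0.47), hsf-1 (-0.27), set-2 (-0.27), rpl-24.2 (-0.26) and hars-1 (-0.25).

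Positive values were largest in ZK353.10 (2.06), C01B10.7 (1.56), haf-6 (1.53), comt-2 (1.4), WBGene00010966 (1.36), F23D12.3 (1.35), R09E12.9 (1.34) and C54C6.5 (1.19). Markers of muscle, pharynx, neurons and intestine and long muscle genes with positive values were tnt-4 (0.45), eat-4 (0.39), unc-89 (0.36), mec-7 (0.28), tni-1 (0.27), myo-5 (0.26), cpr-5 (0.26) and unc-13 (0.22). The others were acdh-1 (0.66), col-39 (0.44), hsp-60 (0.44), clec-67 (0.43), mes-4 (0.41), lin-53 (0.38), pcn-1 (0.35), rpl-41.1 (0.35), lin-35 (0.29) and smc-5 (0.28).

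Of these differences 15 were lost in 10 or more of the alternative fits: lin-35 (adjusted p = 0.0498) and R09E12.9 in 17, C49G7.12, T26H5.9 and col-39 in 15, cyp-37B1 in 14, pals-23, WBGene00010966, smc-6, tni-1 and rpl-24.2 in 13, comt-2 in 11, and unc-13, set-2 and the numr-1 copy WBGene00017267 in 10.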

How the results depend on the processing

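The counts of UV-B calls in lin-52(n771) larvae stayed within 1.5 times of 4268 higher and 4330 lower in every alternative: 3502 to 4920 were higher and 3685 to 4632 lower over other scalings, pseudocounts, filters and gene sets, 4091 and 4166 with only the 6 libraries fitted, and 4026 to 4146 and 4069 to 4196 with 1 mutant library left out. Of 203 named genes 190 kept their call in every fit. C54C6.5, Y2H9A.6, Y47G7B.2, cox-6B, csa-1, dpl-1, efl-1, egl-1, lin-35, tnt-4 and vab-10 lost it in at least 1 fit, and parp-1 and exo-3 gained one.

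The difference between the strains was less stable. With 1 library left out, 371 to 1052 genes were positive and 453 to 1134 negative. Positive counts moved by over 1.5 times from 702 without N2 mock replicates 1 (411), 2 (435) or 4 (454), N2 UV-B replicate 2 (388), and lin-52(n771) mock replicate 4 (461), UV-B replicate 3 (424) or UV-B replicate 4 (371). Negative counts did so from 801 without N2 UV-B replicates 2 (454) or 3 (501) and lin-52(n771) UV-B replicates 3 (489) or 4 (453). Of 68 named differences 35 passed in every fit. No direction was reversed.

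The labels number the mutant replicates 2, 3 and 4 in both treatments, but mock and UV-B libraries with the same number did not deviate together (correlations of 0.00394, -0.0108 and -0.0265), and N2 shares only numbers 1 and 2 between treatments (0.18 and 0.12), so the numbers were not taken as pairs. With a replicate block, 4170 genes were higher and 4242 lower in the mutant, and 372 differences were positive and 465 negative. The cause was not tested. Depth is unknown, so what low values can show is not known.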

Other observations

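Gene families that share a name stem and have at least 10 tested members gave a further view of the UV-B response in lin-52(n771) larvae, with 119 such families and a negative median log2 fold change in 64. They were chosen here after their values were seen and carry no test. Among the lowest were the cutl genes, cuticlin-like genes of the cuticle, with 14 of 18 lower and 1 higher (median -0.90). The acdh genes, which encode acyl-CoA dehydrogenases, had 9 of 10 lower and none higher (-0.75). Of the neuropeptide receptor families, 27 of 40 npr genes (-0.52) and 12 of 18 frpr genes (-0.54) were lower, and 22 of 36 lgc genes of ligand-gated channels were lower (-0.39). Genes of mitochondrial ribosomes fell by small amounts, with 27 of 40 mrpl genes (-0.22) and 20 of 29 mrps genes (-0.27) lower, as did 12 of 14 cox genes (-0.37).

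At the other end were genes of the nuclear pore. Of 25 npp genes 17 were higher and 4 lower (median 0.61 in the mutant and 0.78 in N2), and 12 had a negative difference between the strains. The math genes had 14 of 17 higher and 0 lower (0.55), the rbm genes of RNA binding 11 of 13 higher (0.46), and the chil genes of chitinase-like proteins 10 of 15 higher (0.58). Of 13 pgp genes, the family of pgp-8, 9 were higher and 3 lower (0.75), and 6 had a negative difference. The nspc genes had 8 of 15 lower (-0.33 against -0.94 in N2), and 8 had a positive difference.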
